A study of Mus musculus with 24 samples.

Results

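Confluent C2C12 myoblasts and the same cells after the first day of differentiation were compared in order to measure the net change of that day. C2C12 is an established clonal line of mouse skeletal myoblasts, which stop dividing and fuse into multinucleate myotubes when the serum of the medium is reduced. Total RNA was hybridised to Affymetrix mouse arrays, and 6 of the 24 arrays of the series were used, chosen by their labels alone: 3 of Day 1, taken in medium of reduced serum (2% by the labels, 3% by the study's methods), and 3 of Day 0, taken at 90% confluency before the change of medium. All arrays come from this 1 line, which had been grown in high glucose medium with fetal bovine serum. The other arrays cover Day -1 to Day 5, and those of 6 hours (Day 0.25), Day -1, Day 2 and Day 5 are given below only as levels beside the comparison. The sources do not say whether the replicates were separate cultures. The p-values set the difference between the days against the spread among arrays of the same day, and that spread may be only technical.

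Skeletal myoblasts are held ready to differentiate by the basic helix-loop-helix factors Myod1 and Myf5. Reduced serum allows Myog and the MEF2 factors to switch on the genes of the contractile apparatus, while Id proteins and Notch signalling oppose Myod1 and its E protein partners. Withdrawal from the cell cycle, remodelling of the matrix and fusion follow in an ordered way.

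Intensities are given as deposited, on a linear scale on which the trimmed mean of each array lay between 148 and 156. An intensity of at least 100 was reached by 26% to 26.6% of the probe sets of an array. The analysis kept 12332 of 45101 probe sets, those with a mean of at least 100 on either day, and compared log2 intensities with limma's moderated t (an adjusted p under 0.05 was taken as passing, by the method of Benjamini and Hochberg over all these probe sets). Over the probe sets tested, Pearson's r of log2 intensities lay between 0.9863 and 0.9961 for Day 1 arrays and between 0.9925 and 0.9961 for Day 0 arrays, with Day 1 replicate 3 slightly apart from the others of its day. Between arrays of different days it lay between 0.9477 and 0.9647. These are descriptions across probe sets, which are not independent replicates.

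Small changes in many genes made up the first day. Of the probe sets tested, 2112 (17.1%) were higher on Day 1 and 3050 (24.7%) were lower, so that 41.9% differed. Where a gene had several probe sets, the one of the highest absolute t stood for it, which favours the probe set that changed most clearly, and 80 genes had probe sets that passed in opposite directions. Of 7265 genes, 1493 (20.6%) rose and 2296 (31.6%) fell, which together is 52.2%. These shares are the background against which every list below is read. On the log2 scale the difference (Day 1 minus Day 0) had a median of 0.50 among the genes that rose, of -0.44 among those that fell, and of -0.11 over all genes (-0.06 after quantile normalization). In bulk samples such as these, fewer cells of a type and less RNA per cell cannot be told apart. Only 185 genes rose and 99 fell by at least 2-fold, and 19 rose and 10 fell by at least 4-fold. The 3 arrays of one day did not overlap those of the other in 1470 of the genes that rose and 2266 of those that fell, beside 4676 of all genes (64.4%). The count of genes that fell was 1463 without Day 0 replicate 2 and 1444 when all 24 arrays shared 1 estimate of the spread.

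**Figure D1:**
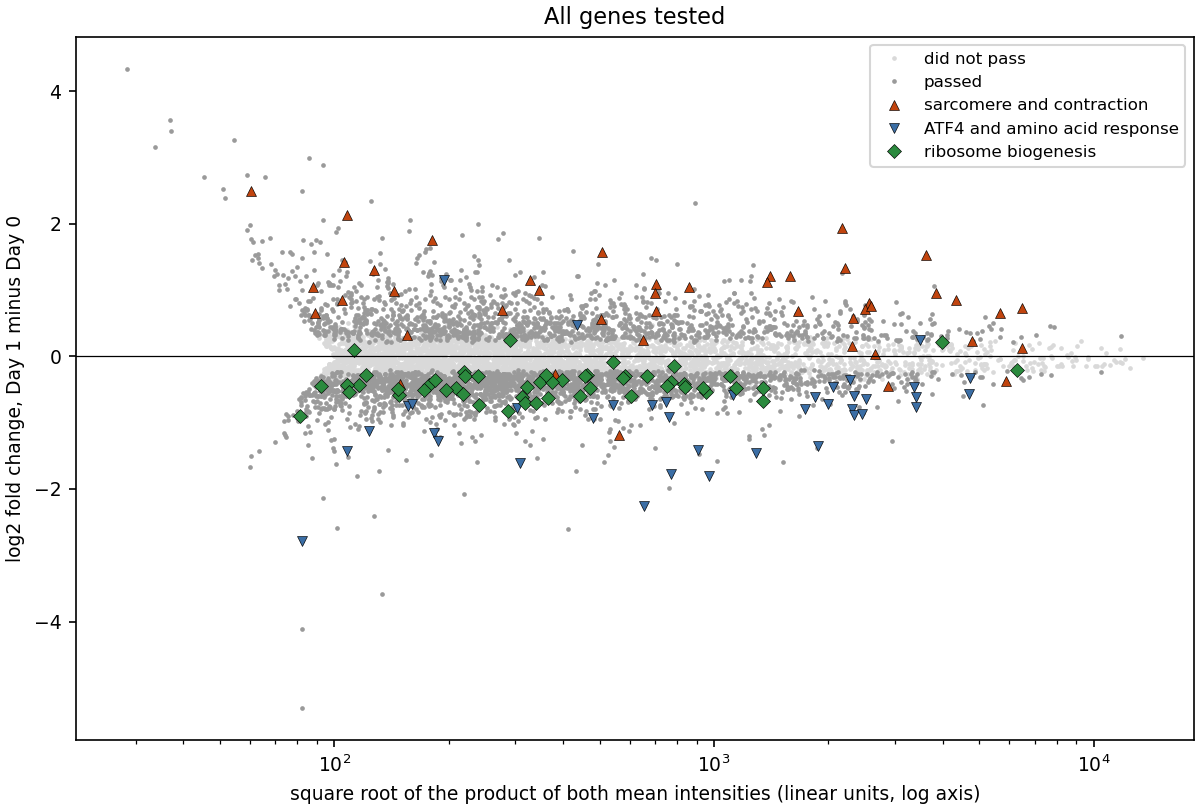
Log2 fold change between Day 1 and Day 0 (vertical axis) against the geometric mean of the levels of both days (horizontal log axis, linear intensity units) for the 7265 genes tested, with genes that passed in dark grey and 3 gene lists marked. The sarcomere genes lie mostly above 0, the ATF4 genes almost all below 0, and the genes of ribosome biogenesis form a narrow band with a median of -0.44.

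With each gene taken at its probe set of the highest absolute t, the largest rises were measured in genes whose Day 0 levels were low. Each of them passed the level filter through Day 1 alone. The 12 genes of this group were taken by their fold change among genes that passed without overlap between days, so their changes are a description. Mest (ID 17294), an imprinted gene of growth, measured 168, 120 and 101 on the 3 Day 1 arrays, against 5.92, 5.79 and 7.05 on Day 0 (log2 fold change 4.34 with an SE of 0.17, adjusted p = 2.09e-06). Nid2 (ID 18074), a nidogen of the basement membrane, measured 102, 85.8 and 174 on Day 1, against 10, 19 and 4.94 on Day 0. Postn (ID 50706), which encodes the matrix protein periostin, measured 109, 123 and 128 on Day 1, against 9.98, 13.9 and 10.5 on Day 0. Every Day 1 array of these 3 genes lay above every Day 0 array, which was a condition of the choice. The Day 0 values were well under the level of 100 asked of one of the days. Ptn (ID 19242), the heparin-binding growth factor pleiotrophin, was at 153, 161 and 183 on Day 1, against 24.7, 16.1 and 12.9 on Day 0, and reached a mean of 516 on Day 2. Cdh11 (ID 12552), a cadherin that joins cells of mesenchymal origin, was at 154, 134 and 206 on Day 1, against 35.6, 26.8 and 16.3 on Day 0. Angpt1 (ID 11600), the ligand of the endothelial receptor Tek, was at 180, 186 and 220 on Day 1, against 38.3, 38.2 and 27.8 on Day 0.

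The transcription factor Egr3 (ID 13655) measured 237, 246 and 274 on Day 1, against 45, 33 and 26.2 on Day 0 (log2 fold change 2.89). The others of the 12 were Colec12 (a scavenger receptor with a collagen domain, log2 fold change 3.16), Pxylp1 (a phosphatase of proteoglycan synthesis, 3.00), Olfml3 (a secreted protein, 2.73), F3 (tissue factor, which starts coagulation, 2.71) and Slc14a1 (a urea transporter, 2.53). The Day 0 means of all 12 lay between 6.25 and 34.7. With values below 50 raised to 50, all 12 still passed, with log2 fold changes between 0.95 (Colec12) and 2.33 (Egr3). That setting uses the arrays by which the 12 were chosen, so it is no separate support. With that floor Idi1, a gene of cholesterol synthesis described below, stood above all 12 at 2.35, so the rank of the 12 rests on their low Day 0 values. It rests on the choice of probe set too. A brighter probe set of Pdgfrb, which did not stand for its gene, rose by 2.76 from a Day 0 mean of 208. Colec12 did not pass with linear values (adjusted p = 0.0575). Mest fell back to 16.8 by Day 5, while Cdh11, Nid2 and Angpt1 went on to 1783, 1269 and 1400.

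The 12 largest falls were chosen in the same way, and the level filter requires that a gene that fell was at 100 or more on Day 0. Car6 (ID 12353), a secreted carbonic anhydrase, measured 11.8, 7.37 and 22.1 on Day 1, against 525, 551 and 409 on Day 0 (log2 fold change -5.31 with an SE of 0.33, adjusted p = 2.49e-05). Avil (ID 11567), which encodes the actin-binding protein advillin, measured 20.8, 17.5 and 21.4 on Day 1, against 369, 318 and 337 on Day 0. A pair of genes better known from the outer layer of the skin, Cdsn (ID 386463, corneodesmosin) and Sprr1a (ID 20753, a precursor of the cornified envelope), measured 37.7, 35.2 and 42.7 and 206, 208 and 102 on Day 1, against 474, 533 and 391 and 893, 1028 and 1059 on Day 0. Sprr1a had been at 1136 on Day -1, whereas Car6, Avil and Cdsn had been at 2.28, 19.3 and 12.8, so that the last 3 were higher on Day 0 than on Day -1 as well. Gch1 (ID 14528), the first enzyme of tetrahydrobiopterin synthesis, measured 116, 103 and 103 on Day 1, against 420, 487 and 441 on Day 0. Gsta2 (ID 14858), a glutathione transferase, measured 330, 353 and 472 on Day 1, against 1713, 1360 and 1458 on Day 0. Csn3 (kappa casein, log2 fold change -2.59), Lims2 (an adaptor of focal adhesions, -2.41) and AA467197 (-2.14) fell as well. The remaining 3 of the 12, Vldlr, Cth and Trib3, belong to the amino acid response described below. The Day 1 means of 6 of the 12 were below 50, and with values below 50 raised to 50 all 12 still passed, with log2 fold changes between -3.30 and -1.81. Here too the arrays are those by which the 12 were chosen.

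**Figure D2:**
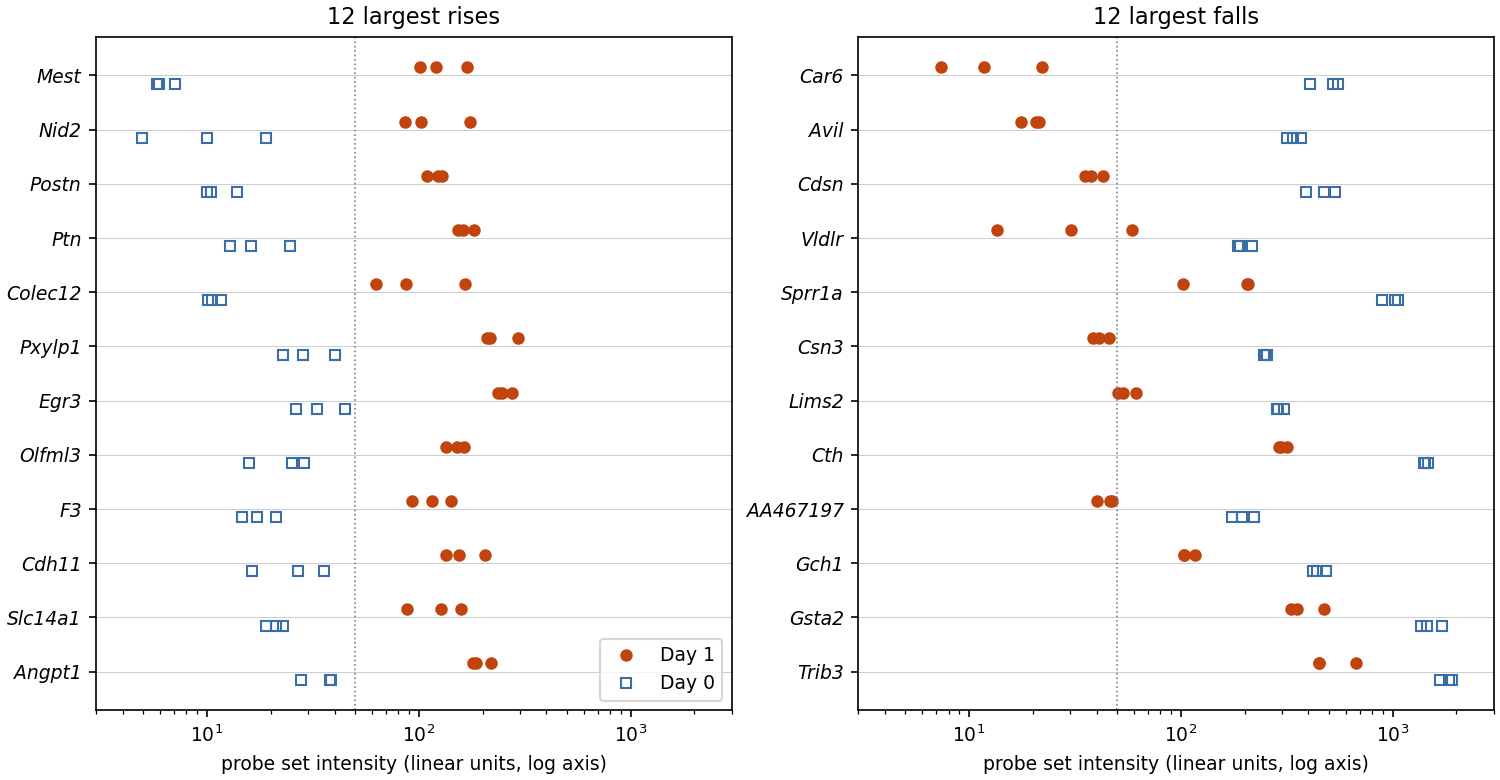
Probe set intensity on each of the 3 Day 1 arrays (filled circles) and the 3 Day 0 arrays (open squares) of the 12 largest rises (left) and the 12 largest falls (right), on a log axis in linear units, with a dotted line at 50. The days do not overlap in any of these genes, which was a condition of the choice, and the Day 0 levels of all 12 rises are below the line.

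Gene lists for the processes of myogenesis and growth were described by how many measured members rose or fell, beside the shares over all genes. The genes of the sarcomere, of the extracellular matrix and of calcium handling and the inhibitors of myogenic differentiation held shares of rising genes between 68.8% and 79.5%. The ATF4 and amino acid response and ribosome biogenesis held shares of falling genes of 92.3% and 86.5%. Most of the other lists lay closer to the background in at least one direction. Some genes belong to several lists, so the lists are not separate from each other.

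**Figure D3:**
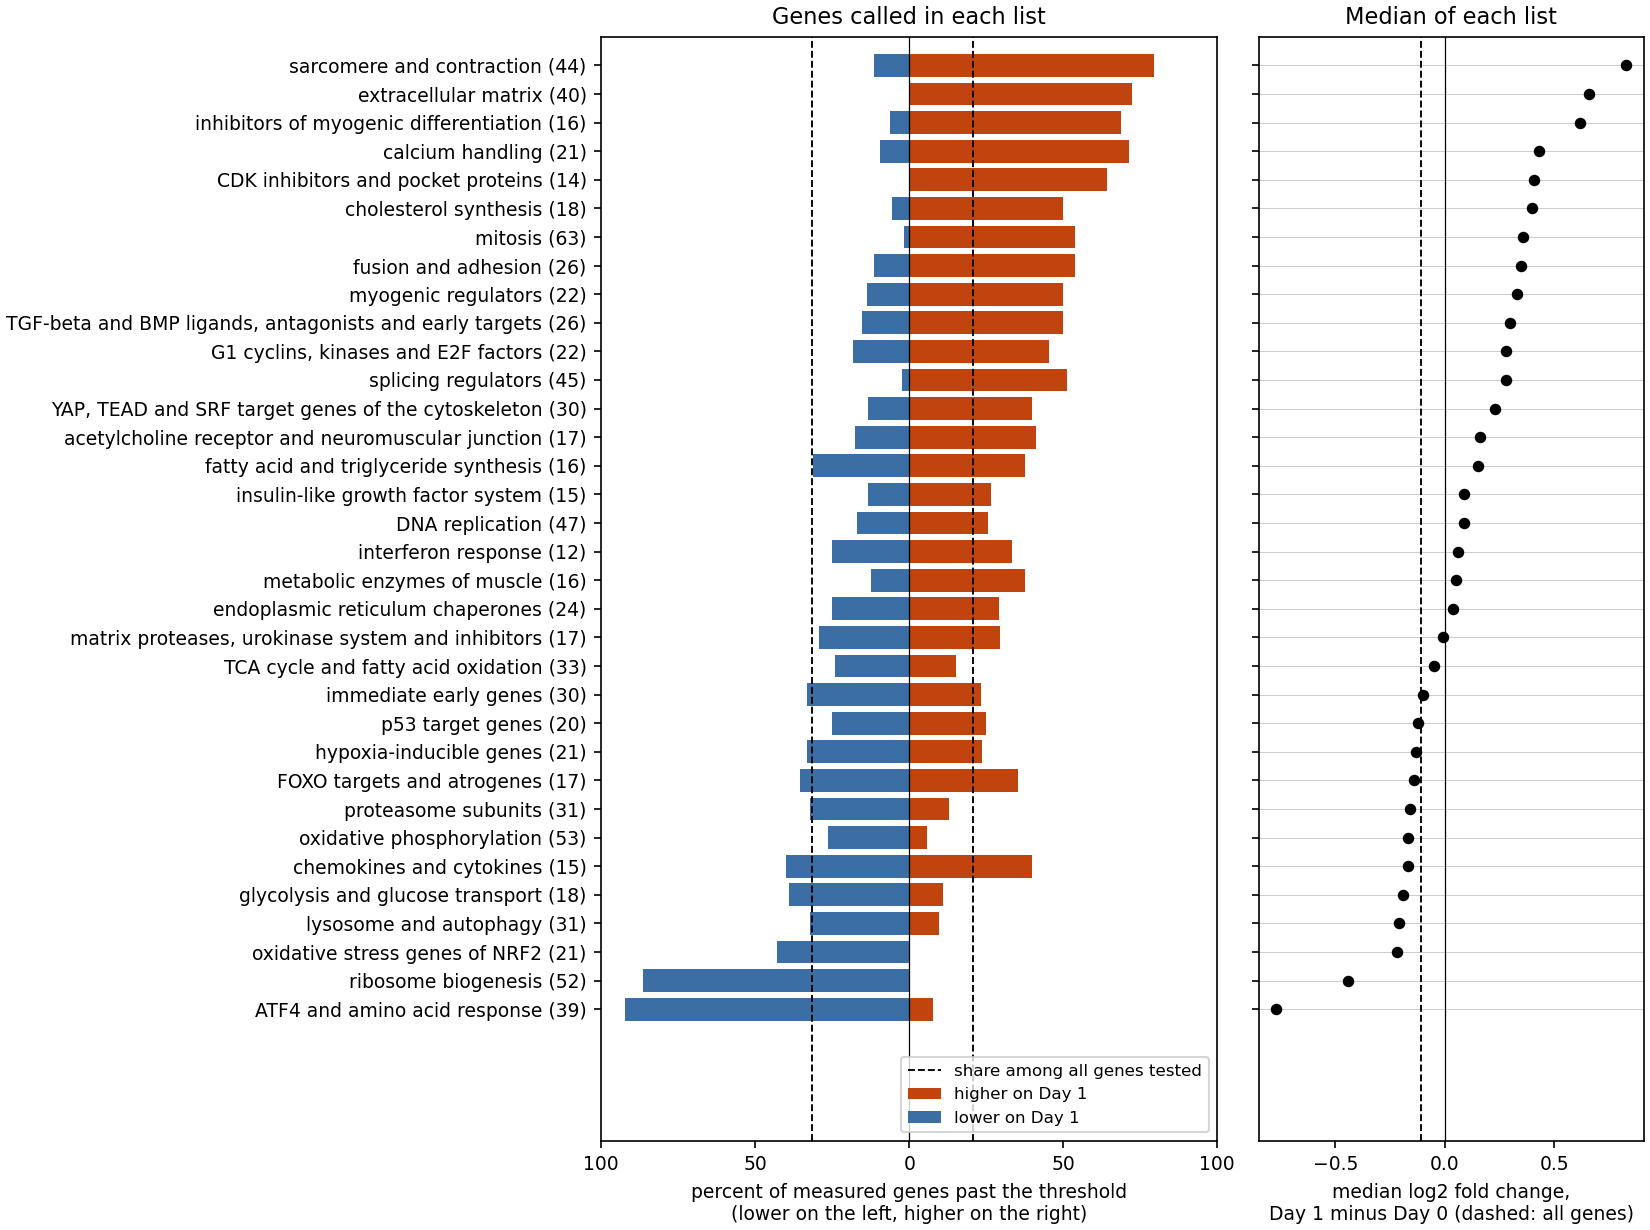
Share of the measured genes of each list that were higher (right) or lower (left) on Day 1 at an adjusted p under 0.05, with the number measured in parentheses, and the median log2 fold change of each list. Dashed lines mark the shares (20.6% and 31.6%) and the median (-0.11) over all genes tested. Sarcomere genes stand at the top with a median of 0.83 and the ATF4 genes at the bottom with -0.77.

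The determination factors differed little between the days, while myogenin rose. Myog (ID 17928), the factor that commits myoblasts to terminal differentiation, measured 4988, 5206 and 6301 on Day 1, against 2698, 2577 and 2588 on Day 0 (log2 fold change 1.06 with an SE of 0.10, adjusted p = 0.000137). It averaged 2428 at 6 hours and 8322 on Day 2. Myod1 (ID 17927) measured 931, 961 and 975 on Day 1, against 855, 844 and 888 on Day 0, a difference of 0.15 on the log2 scale that did not pass (SE 0.07, 95% interval -0.02 to 0.31, adjusted p = 0.131). Its 3 arrays of each day did not overlap, and the difference passed with linear values and with no level filter. Myf5 (ID 17877) measured 974, 981 and 1008 on Day 1, against 806, 840 and 1044 on Day 0, with overlapping arrays (log2 fold change 0.15, 95% interval -0.09 to 0.39). Myf6, the fourth factor of the family, was below 5 on every array of both days.

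Among the myogenic regulators, 22 were measured, of which 11 rose and 3 fell, and the median log2 fold change was 0.33. Smyd1 and Klhl41, which rose, are also counted among the sarcomere genes, and Nupr1, which fell, among the ATF4 genes. Among the MEF2 factors, which act with the bHLH proteins on muscle promoters, Mef2a (ID 17258) measured 851, 784 and 1157 on Day 1, against 547, 425 and 407 on Day 0 (log2 fold change 1.01). Its other tested probe sets passed with smaller rises of 0.86, 0.46 and 0.29. Those of 0.46 and 0.29 had the highest levels. Mef2d (log2 fold change 0.40, adjusted p = 0.014) also passed but not without replicate 2 or 3 of Day 0 (adjusted p = 0.0563 and 0.0572), and Mef2c was at 239, 313 and 405 on Day 1, against 284, 229 and 220 on Day 0 (adjusted p = 0.136, or 0.0261 without Day 1 replicate 1). Mef2c stood at 1384 on Day 2. Six4 (ID 20474), a homeodomain activator of early muscle genes, measured 421, 476 and 534 on Day 1, against 192, 170 and 161 on Day 0. Rbm24 (ID 666794), an RNA-binding protein of muscle splicing, measured 346, 426 and 416 on Day 1, against 157, 137 and 141 on Day 0. The E protein genes moved less, with a log2 fold change of -0.08 for Tcf3 (adjusted p = 0.636) and of 0.30 for Tcf12, which passed (adjusted p = 0.0308) but not without replicate 2 or 3 of Day 0 or replicate 3 of Day 1 (adjusted p = 0.0961, 0.0991 and 0.0569). Srf was at -0.06 and did not pass. The 3 that fell were Msc, the bHLH repressor musculin (127, 134 and 94 on Day 1, against 229, 201 and 206 on Day 0), Nupr1, a chromatin protein induced by stress, and the TEAD cofactor Vgll2 (log2 fold change -0.45), the last named after its value was seen.

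Most of the inhibitors of differentiation that passed were higher on Day 1. Of 16 measured, 11 rose and 1 fell (0 without replicate 1 of Day 0 or replicate 2 of Day 1), and the median log2 fold change was 0.62. Hes6 is among the 11 (log2 fold change 1.27), although it is known to oppose Hes1, so the list does not hold inhibitors alone. Id2 (ID 15902), a protein that binds E proteins but not DNA, measured 453, 534 and 390 on Day 1, against 202, 178 and 203 on Day 0 (log2 fold change 1.23, SE 0.12). Id3 (ID 15903), of the same family, measured 396, 388 and 276 on Day 1, against 137, 185 and 189 on Day 0. Id1 was at 354, 354 and 280 on Day 1, against 248, 289 and 266 on Day 0, which did not pass (adjusted p = 0.0624) except with quantile normalization or without Day 1 replicate 3. All 3 were far higher at 6 hours, with means of 609, 957 and 845 for Id1, Id2 and Id3.

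Notch1 (ID 18128), a receptor whose signal holds progenitors undifferentiated, measured 262, 289 and 277 on Day 1, against 96.7, 111 and 90.3 on Day 0 (log2 fold change 1.48 with an SE of 0.10, adjusted p = 2.80e-05). Notch3 (ID 18131) measured 340, 331 and 310 on Day 1, against 153, 169 and 154 on Day 0, where 6 hours had averaged 162. The third measured receptor, Notch2, differed by -0.04 and did not pass. The Notch target Hes1 measured 319, 328 and 260 on Day 1, against 211, 229 and 219 on Day 0 (adjusted p = 0.00797, or 0.0692 when all 24 arrays shared the estimate of spread), while its relative Hey1 was at 111, 116 and 109 on Day 1, against 129, 154 and 107 on Day 0, and did not pass. The member that fell was Snai2, a zinc-finger repressor, at 1661, 1398 and 1637 on Day 1, against 2360, 1977 and 1858 on Day 0 (adjusted p = 0.0209). It missed the threshold without Day 0 replicate 1 or Day 1 replicate 2 (adjusted p = 0.0572 and 0.07).

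**Figure D4:**
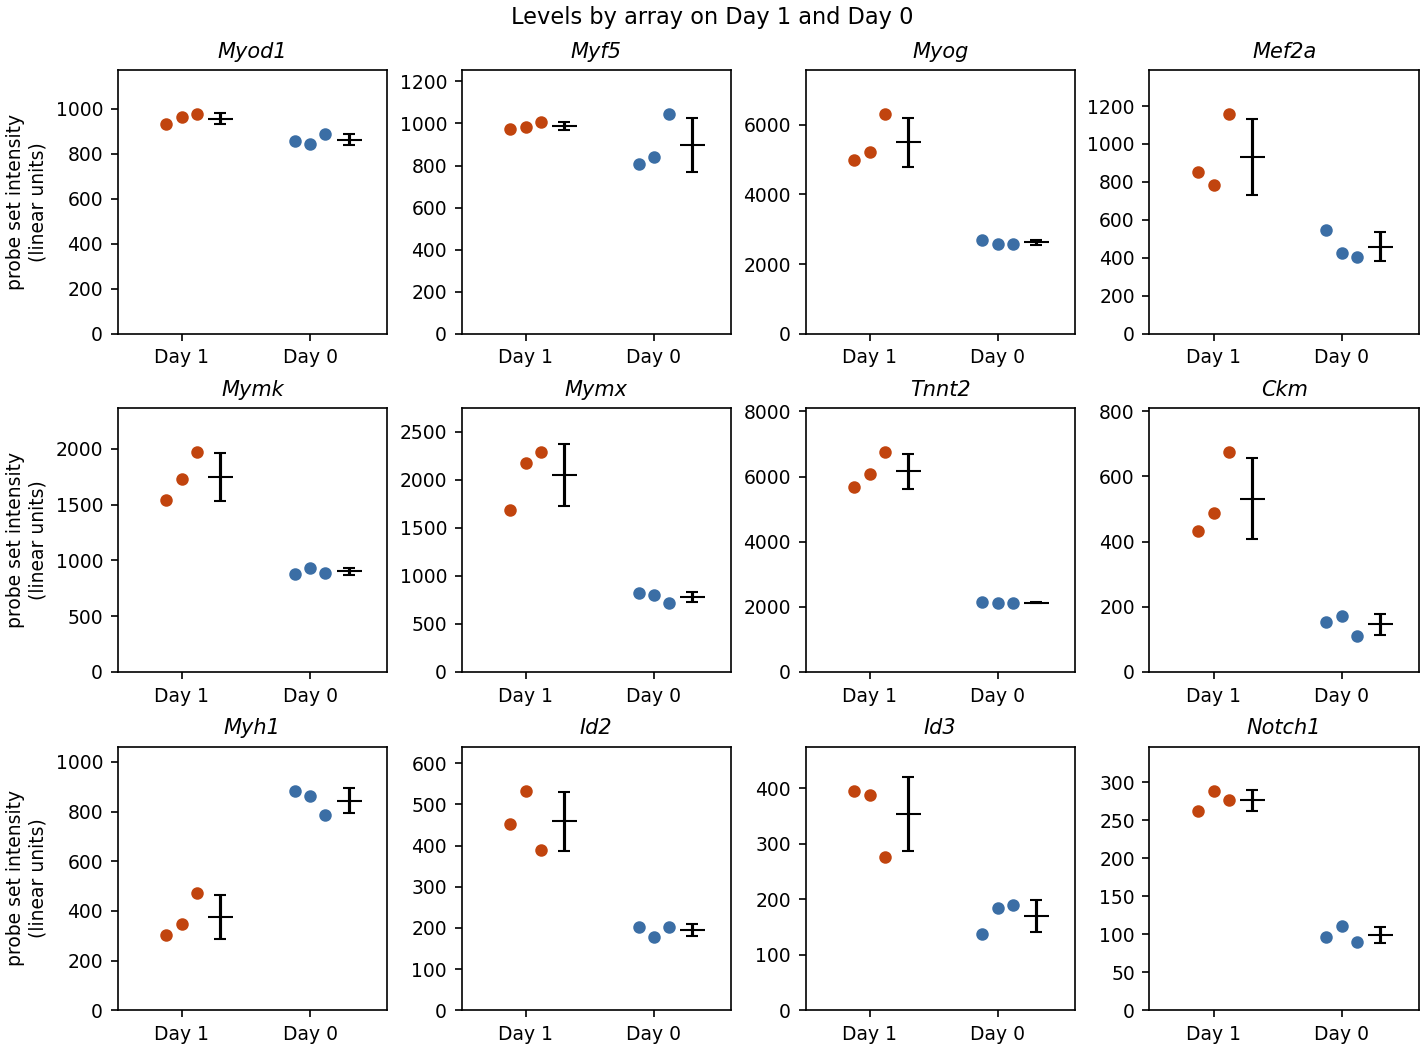
Probe set intensity (linear units, axis from 0) of 12 genes of muscle and its inhibitors on the 3 Day 1 arrays (left of each panel) and the 3 Day 0 arrays (right), with the mean and SD of each day as bars. Myod1 and Myf5 differ little, Myog is at 5499 ± 703 on Day 1 and 2621 ± 67.0 on Day 0, and Myh1 is the gene of the 12 that was lower on Day 1.

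Contractile genes rose on the whole, with a few exceptions, not all of which held under every setting. Of 44 contractile and sarcomeric genes measured, 35 rose and 5 fell (2 without replicate 2 of Day 0, 3 without replicate 3 of Day 0), and the median log2 fold change was 0.83. Their median at 6 hours had been -0.37 relative to Day 0, with 30 of the 44 below it. All 7 measured troponin genes rose, by 0.71 to 1.57 on the log2 scale, a family picked out after its values were seen. Tnnt2 (ID 21956), the cardiac and embryonic troponin T, measured 5665, 6076 and 6744 on Day 1, against 2161, 2110 and 2121 on Day 0 (log2 fold change 1.53 with an SE of 0.09, adjusted p = 1.66e-05). Synpo2l (ID 68760), a protein of the Z-disc, measured 323, 379 and 295 on Day 1, against 88, 95.8 and 112 on Day 0. Neither gene's arrays overlapped between the days, nor did those of 1470 of all 1493 genes that rose. Both Tnnt2 and Synpo2l went on rising to Day 5, at 12803 and 597. The largest rises of the list, chosen by size, were those of Unc45b, a chaperone that folds myosin (2.49), Neb, the ruler of the thin filament (2.14), and Myh3, the embryonic myosin heavy chain (1.93).

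The adult fast myosin Myh1 (ID 17879) went the other way. It measured 303, 349 and 473 on Day 1, against 885, 862 and 786 on Day 0 (log2 fold change -1.19 with an SE of 0.15, adjusted p = 0.000504), and averaged 134 at 6 hours and 2190 on Day 2. The heavy chains share long stretches of sequence, so signal from one gene on the probe set of another was not tested. Tpm3 (ID 59069), a slow tropomyosin, was lower on 1 probe set (log2 fold change -0.42), but its probe set of the highest level gave 0.13. The small heat shock protein Cryab (-0.44) and the stress-responsive Ankrd1 (-0.37), named after their values were seen, fell too.

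The promoters of 3 of these genes are shown because they hold motifs known to be bound by the factors described above. Of the 35 genes that rose, 29 had a promoter in the RefSeq table (build GRCm38.p6, 250 bases before the start site). Of these, 12 (41.4%) held the E-box CAGCTG on either strand, against 13.3% of 5969 genes tested and 13% of all 32851 promoters. The E-box CAGGTG was held by 37.9% (16.4% of genes tested, 17.2% of all promoters), the MEF2 site by 20.7% (1.81% and 2.92%) and the CArG box of SRF by 10.3% (1.56% and 1.47%). In 17 of the 29 (58.6%) at least 1 of CAGCTG, the MEF2 site and the CArG box was present, against 15.9% of genes tested. Members of the list that did not rise held them too. CAGCTG was present in Myl1, Pdlim3 and Des, which did not pass, and in Tpm3, which fell. Myh1, which fell, held a MEF2 site. The motifs are therefore not particular to the genes that rose. A match of letters is a description and not a bound site. The lines give each sequence from 5′ to 3′ on the strand of the gene, with both kinds of E-box and the MEF2 site in capitals, which overlap nowhere in these 3.
Tnnt2, chr1:135836084-135836333, plus strand, 2 E-boxes CAGCTG and an E-box CAGGTG on the opposite strand: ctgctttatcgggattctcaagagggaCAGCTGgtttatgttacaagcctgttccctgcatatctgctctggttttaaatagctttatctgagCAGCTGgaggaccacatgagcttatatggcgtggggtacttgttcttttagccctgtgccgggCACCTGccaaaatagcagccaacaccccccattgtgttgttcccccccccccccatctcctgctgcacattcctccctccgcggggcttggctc
Klhl41, chr2:69669870-69670119, plus strand, an E-box CAGGTG on the opposite strand, an E-box CAGCTG and a MEF2 site: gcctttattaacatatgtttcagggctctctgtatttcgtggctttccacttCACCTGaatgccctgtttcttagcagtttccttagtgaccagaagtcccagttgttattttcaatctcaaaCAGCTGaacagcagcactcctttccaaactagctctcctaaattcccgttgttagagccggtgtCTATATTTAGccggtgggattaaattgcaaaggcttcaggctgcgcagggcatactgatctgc
Synpo2l, chr14:20664575-20664824, minus strand, an E-box CAGCTG, a MEF2 site and an E-box CAGGTG: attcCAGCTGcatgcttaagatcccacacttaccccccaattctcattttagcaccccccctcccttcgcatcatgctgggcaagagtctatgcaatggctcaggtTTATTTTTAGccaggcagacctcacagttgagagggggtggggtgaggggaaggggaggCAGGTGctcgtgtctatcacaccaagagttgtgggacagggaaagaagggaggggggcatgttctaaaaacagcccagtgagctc
In Klhl41, a kelch protein that stabilises the thin filament, the E-box CAGCTG starts 127 bases before the start site and the MEF2 site 63 bases before it. Klhl41 itself had a log2 fold change of 1.22. Synpo2l has a second start site in the table, and the one shown holds all of these motifs.

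Calcium handling held more rises than falls. Of 21 measured, 15 rose and 2 fell (1 without replicate 2 of Day 0 or replicate 1 or 2 of Day 1), and the median log2 fold change was 0.43, although 8 rose with linear values and 7 with no level filter. Casq2 (ID 12373), a calcium store protein of the sarcoplasmic reticulum, measured 1738, 2087 and 2676 on Day 1, against 842, 927 and 978 on Day 0. Srl (ID 106393), which encodes sarcalumenin, measured 921, 1072 and 1461 on Day 1, against 416, 412 and 383 on Day 0 (log2 fold change 1.49, SE 0.15). Cacng1 (ID 12299), the gamma subunit of the muscle calcium channel, fell to 1168, 1204 and 1280 on Day 1, against 1515, 1807 and 1774 on Day 0. Jsrp1, which anchors the junction of the reticulum, fell with -0.28 on the log2 scale, and did not pass without replicate 2 or 3 of Day 0 or replicate 1 or 2 of Day 1 (adjusted p between 0.0561 and 0.0762).

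Genes of fusion and adhesion rose in part. Of 26 measured, 14 rose and 3 fell (1 without replicate 2 of Day 0), with a median of 0.35. Mymk (ID 66139), the fusion protein myomaker, measured 1542, 1727 and 1968 on Day 1, against 881, 933 and 889 on Day 0 (log2 fold change 0.95, SE 0.10). Mymx (ID 653016), its partner myomixer, measured 1683, 2177 and 2286 on Day 1, against 822, 805 and 723 on Day 0. Both had been below Day 0 at 6 hours, with means of 501 and 258. Cdh2 (ID 12558), N-cadherin, measured 1122, 1183 and 1191 on Day 1, against 441, 400 and 430 on Day 0 (log2 fold change 1.46), and Cdon (ID 57810), a receptor that works with cadherins at contacts between myoblasts, measured 564, 567 and 595 on Day 1, against 301, 304 and 301 on Day 0. Neo1, the netrin receptor neogenin, fell with -0.84 on the log2 scale, but its probe set of the highest level gave -0.23 and did not pass. Arhgap10, a GTPase-activating protein, measured 72.2, 72 and 71.1 on Day 1, against 117, 109 and 80.8 on Day 0 (adjusted p = 0.016, or 0.064 over all 24 arrays).

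Of 17 measured genes of the acetylcholine receptor and the neuromuscular junction, 7 rose and 3 fell (1 without replicate 1 or 3 of Day 0 or replicate 1 of Day 1, 6 without replicate 3 of Day 1), and the median was 0.16. Agrn (ID 11603), the organiser agrin, measured 148, 113 and 166 on Day 1, against 78.1, 54.8 and 65 on Day 0, and its receptor Lrp4 (ID 228357) measured 112, 105 and 92.7 on Day 1, against 41.8, 61.3 and 45.8 on Day 0. Of 16 measured metabolic enzymes of muscle, 6 rose (3 without replicate 1 of Day 0) and 2 fell, with a median of 0.05. Ckm (ID 12715), the muscle creatine kinase, measured 434, 489 and 674 on Day 1, against 154, 173 and 111 on Day 0 (log2 fold change 1.86, SE 0.19). The brain isoform Ckb (ID 12709) measured 407, 454 and 378 on Day 1, against 200, 214 and 239 on Day 0. Cox6a2 (ID 12862), the muscle form of a cytochrome oxidase subunit, fell to 55.3, 55 and 81.1 on Day 1, against 133, 172 and 146 on Day 0, after a mean of 2.15 at 6 hours, and stood at 2042 on Day 5.

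Nearly all genes of the response to amino acid shortage were lower on Day 1. ATF4 is a transcription factor translated when amino acids are scarce or the reticulum is stressed, and its targets import amino acids, make them and charge them to tRNA. All 39 measured members passed, 36 of them lower and 3 higher on Day 1, with a median log2 fold change of -0.77. Between 34 and 36 were lower whichever array was left out. At 6 hours the median had been -1.76 relative to Day 0, and 38 of the 39 were below Day 0, so that the Day 1 median lay between those of 6 hours and Day 0. On Day 2 the median was -0.48. On Day -1, before confluence, it had been -1.00, so that the median was highest on Day 0 among these times.

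Cth (ID 107869), the cystathionine lyase that makes cysteine, measured 297, 290 and 316 on Day 1, against 1466, 1411 and 1415 on Day 0 (log2 fold change -2.25 with an SE of 0.08, adjusted p = 1.03e-06), with a mean of 30.1 at 6 hours. Trib3 (ID 228775), a pseudokinase that feeds back on ATF4, measured 447, 447 and 674 on Day 1, against 1669, 1902 and 1845 on Day 0, and 13.4 on average at 6 hours. Vldlr (ID 22359), a lipoprotein receptor, measured 30.4, 13.5 and 58.6 on Day 1, against 191, 216 and 187 on Day 0 (log2 fold change -2.78, SE 0.42), and its Day 1 arrays varied more than those of the other members named. Ppp1r15a (ID 17872), which directs the removal of the phosphate from eIF2alpha, measured 157, 173 and 201 on Day 1, against 505, 556 and 555 on Day 0. Pck2 (ID 74551), the mitochondrial phosphoenolpyruvate carboxykinase, measured 119, 111 and 138 on Day 1, against 254, 287 and 274 on Day 0 (log2 fold change -1.15, SE 0.10), and 21.6 on average at 6 hours. Sesn2, an inhibitor of TORC1, measured 79.5, 68.2 and 104 on Day 1, against 167, 186 and 192 on Day 0, and Eif4ebp1, a repressor of translation, measured 1303, 1354 and 1291 on Day 1, against 2113, 2459 and 2301 on Day 0. In every gene named here the 3 Day 1 arrays lay below the 3 Day 0 arrays, as they did in 2266 of all 2296 genes that fell. For Cth, Trib3 and Vldlr this was a condition of their choice among the largest falls.

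Within the list, families were picked out after their values were seen. The 8 measured aminoacyl-tRNA synthetases all fell, with log2 fold changes of -1.41 to -0.35, and so did the 5 enzymes of serine and one-carbon metabolism, with -1.35 to -0.32. Of 7 amino acid transporters, 6 fell and Slc38a2 rose (0.25). The other genes that rose were Ddit4, an inhibitor of TORC1 (555, 522 and 462 on Day 1, against 372, 394 and 341 on Day 0), and Fgf21 (ID 56636), a hormone that stressed muscle secretes. Fgf21 measured 228, 288 and 363 on Day 1, against 126, 131 and 132 on Day 0 (log2 fold change 1.15, SE 0.15), after 5.16 on average at 6 hours, and was at 600 on Day 2. Atf4 itself fell with -0.61, and Atf3 (ID 11910), a related factor of the stress response, measured 341, 325 and 407 on Day 1, against 752, 803 and 799 on Day 0.

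Of the 36 genes of the list that fell, 31 had a promoter in the table, and 8 of these (25.8%) held TGATGNAA, the core of the composite element of ATF4 and C/EBP, on either strand, against 2.38% of genes tested and 3.45% of all promoters. The 8 were Asns, Chac1, Pck2, Vldlr, Nupr1, Aars, Gars and Tars, and the riser Fgf21 held it too. This motif was added after the levels had been seen. The promoters of Pck2 and Asns also held GCGGAGGC, the motif of the study's reporter assays. They were the 2 of the 31 (6.45%) to hold it, a share near the 6.92% of genes tested (2.96% of all promoters). The promoters of Vldlr, the largest fall of the list, of Asns, the asparagine synthetase (log2 fold change -0.89), and of Pck2 are shown for their positions of the element, with both motifs in capitals.
Vldlr, chr19:27216770-27217019, plus strand, TGATGNAA on the opposite strand: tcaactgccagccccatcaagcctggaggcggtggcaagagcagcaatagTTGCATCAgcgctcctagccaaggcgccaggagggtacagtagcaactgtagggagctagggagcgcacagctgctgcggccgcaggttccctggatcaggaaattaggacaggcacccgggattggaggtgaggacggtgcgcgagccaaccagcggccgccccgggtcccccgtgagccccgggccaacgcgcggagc
Asns, chr6:7693210-7693459, minus strand, GCGGAGGC on the opposite strand and TGATGNAA on that of the gene: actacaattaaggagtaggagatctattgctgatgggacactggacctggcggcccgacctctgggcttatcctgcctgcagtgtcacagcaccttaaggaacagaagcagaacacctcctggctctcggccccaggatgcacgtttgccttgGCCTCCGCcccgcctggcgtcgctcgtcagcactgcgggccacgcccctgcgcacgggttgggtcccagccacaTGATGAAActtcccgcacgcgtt
Pck2, chr14:55540016-55540265, plus strand, TGATGNAA on the opposite strand and GCGGAGGC on that of the gene: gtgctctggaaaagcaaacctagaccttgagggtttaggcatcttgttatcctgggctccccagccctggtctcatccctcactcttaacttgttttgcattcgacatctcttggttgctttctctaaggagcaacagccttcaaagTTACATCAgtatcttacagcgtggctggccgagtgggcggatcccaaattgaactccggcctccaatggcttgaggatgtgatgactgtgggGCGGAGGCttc
The element begins 200 bases before the start site in Vldlr, 23 in Asns and 103 in Pck2.

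Genes of ribosome biogenesis fell together by small amounts. These proteins transcribe, cut and assemble ribosomal RNA in the nucleolus and mark growth. Of 52 measured, 45 fell and none rose (1 without replicate 1 or 2 of Day 0 or replicate 2 or 3 of Day 1), and the log2 fold changes had a median of -0.44 and a range of -0.90 to 0.24. The count that fell lay between 33 and 43 when an array was left out. Their median at 6 hours had been -0.01, so that the median stood near Day 0 there. Rrp9 (ID 27966), a protein of the U3 small nucleolar particle, measured 59.4, 61.3 and 58.5 on Day 1, against 111, 119 and 104 on Day 0, and 96.1 on average at 6 hours. Nop14 (ID 75416), of the same pathway, measured 211, 209 and 228 on Day 1, against 379, 407 and 358 on Day 0, but its 6 hour mean was already 215. Myc (ID 17869), which drives these genes in many cells, measured 357, 316 and 377 on Day 1, against 654, 686 and 670 on Day 0 (log2 fold change -0.94 with an SE of 0.09, adjusted p = 0.000128), and 301 at 6 hours.

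Matrix genes rose without exception among those that passed. Of 40 measured genes of the extracellular matrix, 29 rose and none fell (1 without replicate 1 of Day 0), and the median log2 fold change was 0.66. All 13 measured collagen genes rose, by 0.56 to 2.39 on the log2 scale, as did the 3 lysyl oxidase genes that crosslink them (0.33 to 0.86), both families picked out after their values were seen. Col6a1 (ID 12833), a chain of the microfibrillar collagen around muscle fibres, measured 446, 440 and 545 on Day 1, against 117, 137 and 107 on Day 0 (log2 fold change 1.99 with an SE of 0.12, adjusted p = 2.21e-05). Col1a1 (ID 12842), of the fibrillar collagen, measured 335, 343 and 243 on Day 1, against 82.7, 117 and 99.4 on Day 0. Thbs1 (ID 21825), the adhesive glycoprotein thrombospondin, measured 1064, 806 and 1149 on Day 1, against 468, 414 and 387 on Day 0, with a higher mean of 1720 at 6 hours.

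Of 17 measured matrix proteases and their inhibitors, 5 rose and 5 fell (3 without replicate 2 or 3 of Day 0 or replicate 1 or 2 of Day 1). Adamts4 (ID 240913), which cleaves proteoglycans, measured 362, 431 and 441 on Day 1, against 122, 114 and 110 on Day 0, and Mmp14 (ID 17387), the membrane-bound collagenase, measured 745, 702 and 771 on Day 1, against 215, 254 and 270 on Day 0. The urokinase receptor Plaur (ID 18793) fell to 634, 627 and 545 on Day 1, against 945, 970 and 898 on Day 0. Of 26 measured genes of TGF-beta and BMP signalling, 13 rose (8 when all 24 arrays shared the estimate of spread) and 4 fell (2 without replicate 2 of Day 0), with a median of 0.30. Tgfb3 (ID 21809), a ligand, measured 309, 307 and 323 on Day 1, against 186, 192 and 180 on Day 0. Ltbp2 (ID 16997), a matrix protein of the family that tethers latent TGF-beta, measured 159, 159 and 180 on Day 1, against 57.5, 52.7 and 42 on Day 0. Smurf1 (ID 75788), a ligase that removes Smad proteins, fell to 95.4, 98.6 and 118 on Day 1, against 187, 218 and 182 on Day 0.

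Mitotic genes that passed were higher on Day 1 than in the confluent culture, with 1 exception. Of 63 measured genes of mitosis, 34 rose and 1 fell, and the median log2 fold change was 0.36. Their median was 0.76 at 6 hours and -1.15 on Day 2 relative to Day 0. On Day -1, in the growing culture, it had been 1.08, so that the Day 1 median lay between those of Day 0 and Day -1. The count that rose depended on the estimate of spread, with 27 to 48 when an array was left out but 6 when all 24 arrays shared it. Mki67 (ID 17345), a protein of dividing nuclei, measured 770, 667 and 701 on Day 1, against 404, 404 and 380 on Day 0 (log2 fold change 0.85 with an SE of 0.08, adjusted p = 0.00017, or 0.128 over all 24 arrays). Ect2 (ID 13605), which starts cytokinesis, measured 759, 718 and 769 on Day 1, against 418, 418 and 465 on Day 0 (adjusted p = 0.000198, or 0.078 over all 24 arrays). Of 8 measured kinesins 7 rose, and of 6 condensin subunits 5 rose, families picked out after their values were seen, while the mitotic kinases Cdk1 and Aurka had log2 fold changes of 0.05 and 0.02 and did not pass. The 1 gene that fell, the checkpoint gene Bub3 (-0.43), gave 0.07 on its probe set of the highest level. Foxm1 (ID 14235), an activator of mitotic genes, measured 230, 209 and 161 on Day 1, against 155, 141 and 144 on Day 0 (adjusted p = 0.0252), and did not pass without replicate 2 or 3 of Day 0 or replicate 1 or 2 of Day 1 (adjusted p between 0.0719 and 0.0839).

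DNA replication genes went both ways. Of 47 measured, 12 rose (25.5%) and 8 fell (17%), with a median of 0.09, against 20.6% and 31.6% of all genes. Left without 1 array, 20 rose without Day 1 replicate 3, and 3, 4 and 5 fell without replicates 2, 3 and 1 of Day 0, while over all 24 arrays 4 rose and 4 fell. Mcm4 (ID 17217), a subunit of the replicative helicase, measured 1129, 956 and 1078 on Day 1, against 544, 502 and 582 on Day 0, though its probe set of the highest level gave 0.20 and did not pass. Uhrf1 (ID 18140), which keeps DNA methylation through replication, measured 1205, 1117 and 1035 on Day 1, against 695, 624 and 680 on Day 0 (adjusted p = 0.000374, or 0.0786 over all 24 arrays). Orc2 (ID 18393), of the origin recognition complex, fell to 162, 155 and 165 on Day 1, against 265, 223 and 241 on Day 0. Of the 10 risers with a promoter in the table, 6 held an E2F site (any of TTTCCCGC, TTTCGCGC, TTTGCCGC and TTTGGCGC, on either strand), against 4.31% of genes tested and 1.86% of all promoters.

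Among 22 measured G1 cyclins, kinases and E2F factors, 10 rose and 4 fell (2 without replicate 2 of Day 0 or replicate 2 of Day 1). Ccnd2 (ID 12444), a D cyclin, fell to 410, 386 and 417 on Day 1, against 821, 894 and 927 on Day 0 (log2 fold change -1.12 with an SE of 0.08, adjusted p = 4.32e-05). Ccnd1 was at 1037, 980 and 618 on Day 1, against 927, 1107 and 1046 on Day 0, and did not pass. Ccne2 (ID 12448), the cyclin of the entry into S phase, measured 338, 300 and 252 on Day 1, against 161, 129 and 149 on Day 0. E2f1 was at 89.5, 91.1 and 82.9 on Day 1, against 91.6, 107 and 110 on Day 0, and passed only without Day 0 replicate 1 (adjusted p = 0.0824 with all 6 arrays, 0.0263 without it).

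The inhibitors of the cycle that passed were higher on Day 1 as well. Of 14 measured CDK inhibitors and pocket proteins, 9 rose and none fell (1 without replicate 3 of Day 1), with a median of 0.41. Gadd45b (ID 17873), a stress sensor, measured 106, 111 and 117 on Day 1, against 29.8, 30.7 and 37.7 on Day 0. Ccng2 (ID 12452), a cyclin of resting cells, measured 713, 702 and 651 on Day 1, against 409, 407 and 412 on Day 0. Cdkn1a (ID 12575), the inhibitor p21, measured 1462, 1779 and 1502 on Day 1, against 1118, 1238 and 1269 on Day 0 (log2 fold change 0.38, adjusted p = 0.0143, or 0.0894 over all 24 arrays), after a lower mean of 686 at 6 hours. The related Cdkn1c was below 3 on every array of both days.

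Genes of cholesterol synthesis that passed were higher on Day 1, with 1 exception. Of 18 measured genes, 9 rose and 1 fell (2 without replicate 3 of Day 1). The median was 0.40, against 0.78 on Day -1, 0.88 at 6 hours and -0.04 on Day 2. Idi1 (ID 319554), the isomerase that makes dimethylallyl diphosphate, measured 328, 292 and 229 on Day 1, against 50.9, 49.9 and 65.2 on Day 0 (log2 fold change 2.35 with an SE of 0.15, adjusted p = 2.71e-05). Hmgcs1 (ID 208715), the synthase early in the pathway, measured 616, 478 and 443 on Day 1, against 231, 216 and 217 on Day 0. Insig2 (ID 72999), which retains the SREBP factors in the reticulum, was at 495, 491 and 545 on Day 1, against 907, 907 and 859 on Day 0 (log2 fold change -0.80), but another of its probe sets gave 0.29 and passed as well (adjusted p = 0.0378), so its direction is not settled. It is the 1 gene of the list counted as lower. Of 16 genes of fatty acid and triglyceride synthesis, 6 rose and 5 fell (3 without replicate 2 or 3 of Day 0). Fasn (ID 14104), the fatty acid synthase, measured 550, 502 and 488 on Day 1, against 324, 324 and 303 on Day 0, and the elongase Elovl6 (ID 170439) measured 128, 107 and 94.8 on Day 1, against 39.9, 44.8 and 48.1 on Day 0. Dgat2, which completes triglycerides, and the desaturase Fads3 fell, with -0.85 and -0.86 on the log2 scale.

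Splicing regulators that passed rose by small amounts, with 1 exception. Of 45 measured, 23 rose and 1 fell, with a median of 0.28. Srsf6 (ID 67996), an SR protein that promotes the use of exons, measured 340, 323 and 344 on Day 1, against 204, 204 and 193 on Day 0, and 443 on average at 6 hours. Its log2 fold change there was 0.74, but brighter probe sets of the gene gave 0.33, 0.31 and 0.15, and the last did not pass. Of 8 measured SR proteins 5 rose, and of 12 hnRNP proteins 8 rose, with none of either family lower, groups picked out after their values were seen. The 1 that fell, Sf3a3 (log2 fold change -0.29), did not pass without replicate 2 or 3 of Day 0 or replicate 2 of Day 1 (adjusted p between 0.0532 and 0.0817), and 3 fell without Day 1 replicate 1.

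Genes of the early response and of the cytoskeleton went both ways. Of 30 measured immediate early genes, 7 rose and 10 fell, close to the background. Plk3 (ID 12795), a stress kinase, fell to 64.7, 54.8 and 63 on Day 1, against 150, 175 and 168 on Day 0, while Dusp6 (ID 67603), the phosphatase that limits ERK, rose to 849, 915 and 845 on Day 1, against 543, 468 and 453 on Day 0. Egr1 was at 1585, 1640 and 1453 on Day 1, against 1438, 1557 and 1677 on Day 0, and Jun at 2763, 2591 and 2871 on Day 1, against 2681, 2649 and 2587 on Day 0, with overlapping arrays in both. Junb measured 402, 386 and 406 on Day 1, against 274, 306 and 285 on Day 0, and passed. Of 30 target genes of YAP, TEAD and SRF, 12 rose and 4 fell (1 without replicate 2 of Day 0, 2 without replicate 3 of Day 0). Tagln (ID 21345), a protein of actin bundles, measured 143, 128 and 106 on Day 1, against 33.6, 46.4 and 30 on Day 0, after a mean of 436 at 6 hours, and Myl9 (ID 98932), a regulatory light chain, measured 166, 174 and 180 on Day 1, against 59.8, 71.3 and 60.2 on Day 0.

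In energy metabolism, 36 of 53 genes of oxidative phosphorylation did not pass, nor did 20 of 33 of the TCA cycle and fatty acid oxidation. In glycolysis 9 of 18 did not pass, near the background, as 52.2% of all genes passed. The shares that rose and fell were 11.1% and 38.9% in glycolysis, against 20.6% and 31.6% of all genes. In the TCA cycle and fatty acid oxidation they were 15.2% and 24.2%. Of the 53 subunits of oxidative phosphorylation, 3 rose (5.66%) (0 without replicate 2 of Day 0, 1 without replicate 1 or 3 of Day 0 or replicate 1 of Day 1, 5 without replicate 3 of Day 1) and 14 fell (26.4%) (5 without replicate 2 of Day 0, 6 without replicate 3 of Day 0), with a median of -0.17, and 2 fell over all 24 arrays. Uqcrq (ID 22272), of the cytochrome bc1 complex, fell to 2052, 2237 and 1902 on Day 1, against 3013, 3734 and 3759 on Day 0, and Ndufs7 (ID 75406), of complex I, to 1556, 1533 and 1403 on Day 1, against 2070, 2487 and 2278 on Day 0. Of 18 genes of glycolysis, 2 rose (1 without replicate 1 or 3 of Day 0) and 7 fell (3 without replicate 2 or 3 of Day 0), or 2 over all 24 arrays, among them the hexokinase Hk2 (ID 15277), at 591, 566 and 647 on Day 1, against 827, 837 and 880 on Day 0 (adjusted p = 0.00185, or 0.0589 over all 24 arrays). Pdk1 (ID 228026), a kinase that inhibits pyruvate dehydrogenase, was at 262, 249 and 303 on Day 1, against 181, 165 and 165 on Day 0 (log2 fold change 0.67). Its other tested probe sets gave -0.40, which passed (adjusted p = 0.0138), and -0.21, so its direction is not settled. Of 33 genes of the TCA cycle and fatty acid oxidation, 5 rose and 8 fell (2 without replicate 2 of Day 0, 3 without replicate 1 of Day 1, 4 without replicate 2 of Day 1, 5 without replicate 3 of Day 0), and Acaa2 (ID 52538), the thiolase of beta oxidation, measured 954, 945 and 1029 on Day 1, against 703, 709 and 629 on Day 0.

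Lists of protein quality control and stress defence lay near the background in most cases. Of 21 measured genes of the NRF2 response to oxidants, 9 fell (42.9%) (5 without replicate 2 or 3 of Day 0) and none rose, with a median of -0.22. Gsta4 (ID 14860), a transferase that detoxifies lipid aldehydes, fell to 1921, 1852 and 1900 on Day 1, against 4629, 4450 and 4707 on Day 0. Of 31 proteasome subunits, 4 rose and 10 fell (4 without replicate 2 or 3 of Day 0, 6 without replicate 2 of Day 1), and over all 24 arrays 5 fell. Of 31 genes of the lysosome and autophagy, 3 rose and 10 fell, so that 32.3% of either list fell, against 31.6% of all genes. Sqstm1 (ID 18412), the autophagy receptor p62, fell to 3721, 3511 and 3832 on Day 1, against 5306, 5740 and 5682 on Day 0. Of 24 chaperones of the endoplasmic reticulum, 7 rose (29.2%) (3 without replicate 2 or 3 of Day 0) and 6 fell (25%). Ero1a (ID 50527), the oxidase that forms disulfides, fell to 303, 287 and 354 on Day 1, against 915, 873 and 861 on Day 0 (log2 fold change -1.49), and the chaperone calreticulin, Calr, rose to 2178, 2156 and 2201 on Day 1, against 1611, 1693 and 1819 on Day 0.

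Signalling genes and the smaller lists went both ways, as did all genes tested, of which 20.6% rose and 31.6% fell. Of 15 measured genes of the insulin-like growth factor system, 4 rose (2 without replicate 1 of Day 1), with 1 over all 24 arrays and 0 with linear values, and 2 fell (4 without replicate 3 of Day 1). Igf2 (ID 16002), the growth factor that myoblasts secrete as they differentiate, measured 96.9, 107 and 122 on Day 1, against 84.1, 76.9 and 66.3 on Day 0, after 5.98 at 6 hours, and reached 814 on Day 2 (adjusted p = 0.00778, or 0.115 over all 24 arrays). Igfbp5 fell with -0.37, but its probe set of the highest level gave 0.01. Of 17 FOXO targets, 6 rose (35.3%) and 6 fell (35.3%, with 3 genes without replicate 2 of Day 0). Of 20 p53 targets 5 rose (25%) and 5 fell (25%). Of 21 hypoxia-inducible genes 5 rose (23.8%) and 7 fell (33.3%, with 4 genes without replicate 2 or 3 of Day 0). The shares of the p53 and hypoxia lists lay near those of all genes. Sesn1 (ID 140742), a stress protein shared by the lists of FOXO and p53 targets, measured 288, 264 and 340 on Day 1, against 143, 97.6 and 96.7 on Day 0. Egln3 (ID 112407), a prolyl hydroxylase of the hypoxia factor, rose to 321, 289 and 334 on Day 1, against 99.1, 117 and 90.8 on Day 0, while Ndrg1 (ID 17988), from the same list, fell to 789, 819 and 836 on Day 1, against 1855, 1852 and 1926 on Day 0.

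Of 12 measured interferon genes, 4 rose (33.3%) and 3 fell (25%), and of 15 chemokines and cytokines 6 rose (40%) and 6 fell (40%). Of 9 clock genes 3 rose (33.3%) and 3 fell (33.3%, with 5 genes without replicate 3 of Day 1). Over all genes the shares were 20.6% and 31.6%. Cxcl5 (ID 20311), which attracts neutrophils, measured 111, 91.1 and 131 on Day 1, against 31.3, 41.6 and 28.5 on Day 0, and Ptgs2 (ID 19225), the inducible cyclooxygenase, fell to 32.7, 32.6 and 35.1 on Day 1, against 118, 107 and 97.1 on Day 0. Ccl2 was at 128, 99.9 and 76.1 on Day 1, against 83.7, 106 and 102 on Day 0, with overlapping arrays. The clock repressor Cry1 (ID 12952) rose to 159, 169 and 153 on Day 1, against 92.6, 77.6 and 72.7 on Day 0, and the clock output Dbp (ID 13170) fell to 53.5, 51.5 and 69.3 on Day 1, against 132, 145 and 105 on Day 0.

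Some genes swung at 6 hours and were back near their Day 0 level on Day 1. The 12 named here were chosen by the size of that swing among genes that did not pass and differed by less than 0.25 on the log2 scale between the days, so their course is a description. Mb (ID 17189), the oxygen carrier myoglobin, averaged 267 on Day 0, 56.6 at 6 hours and 283 on Day 1. Coq8a (ID 67426), needed for coenzyme Q synthesis, averaged 137, 22.6 and 150 at the same times. Etfbkmt, Grtp1, Tmem86a and Calcoco1 took the same course, with 6 hour means of 35, 47.2, 25.1 and 60.7 and Day 1 means of 137, 170, 108 and 171. In the other direction, Dtl (ID 76843), a ligase adaptor of S phase, averaged 207 on Day 0, 621 at 6 hours and 235 on Day 1, and Lss (ID 16987), the lanosterol synthase, 108, 268 and 125. Mtmr4, Pkp2, Adam8 and Slc7a6 had 6 hour means of 1099, 303, 279 and 206 and Day 1 means of 468, 121, 123 and 101. A difference that did not pass does not show that these genes were equal on the 2 days. The difference between Day 1 and Day 0 for Mtmr4 passed with quantile normalization and without Day 0 replicate 1.

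**Figure D5:**
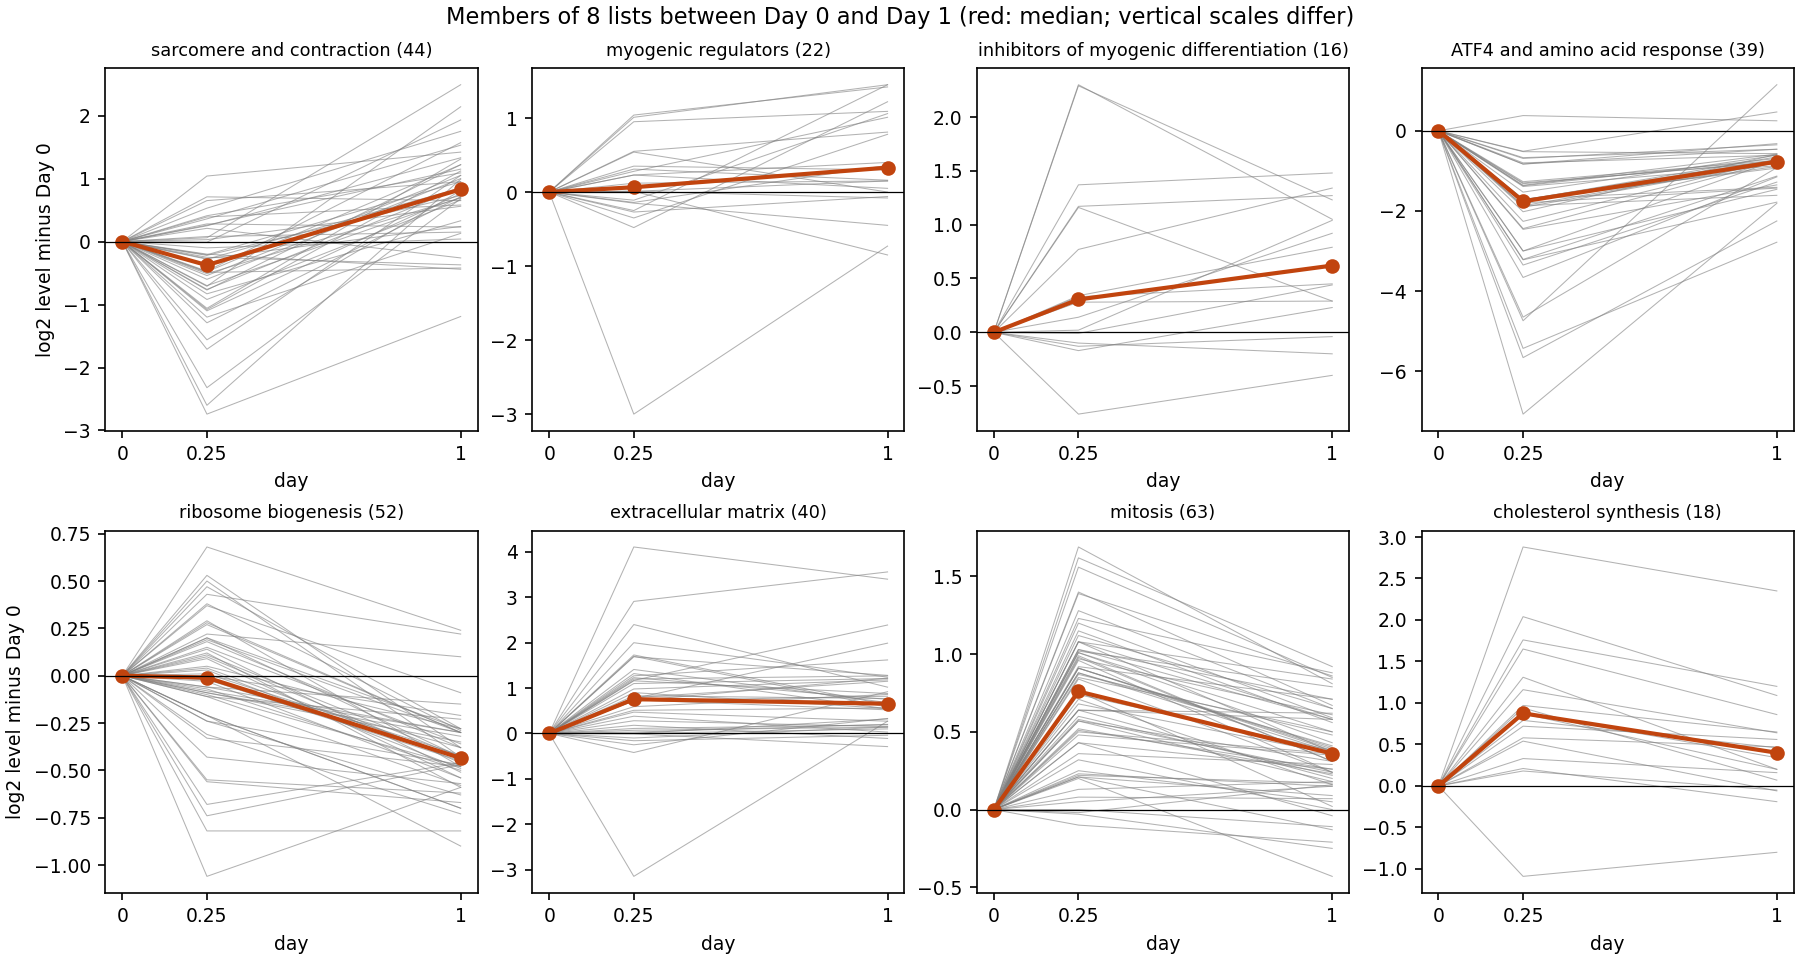
Mean log2 level of each member of 8 lists minus its Day 0 mean at Day 0, Day 0.25 and Day 1 (grey lines, 1 per gene) with the median of the list in red, on vertical scales that differ between panels. The median of the sarcomere genes is -0.37 at Day 0.25 and 0.83 on Day 1, that of the ATF4 genes -1.76 and -0.77, and that of ribosome biogenesis -0.01 and -0.44. Both later points are set against the same Day 0 arrays.

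Markers of other cell types were checked beside these results. Of 12 myoblast markers with a probe set, 2 stayed under 100 on both days, and their summed level was 27400 to 29631 on Day 1 and 26540 to 28871 on Day 0. All 13 markers of macrophages and endothelium stayed under 100, with no level above 7.27. Of 16 cardiac markers, 14 stayed under 100, and the summed level of 8755 to 10634 on Day 1, against 3531 to 3733 on Day 0, came from Tnnt2 and Actc1, which embryonic skeletal muscle also expresses. Of 14 fibroblast markers, 7 stayed under 100, with sums of 29648 to 31150 on Day 1 and 26037 to 28078 on Day 0. Pdgfrb (ID 18596), a growth factor receptor, measured 121, 110 and 112 on Day 1, against 28.6, 30.8 and 32.1 on Day 0. Its brighter probe set averaged 1422 on Day 1 and 208 on Day 0 (log2 fold change 2.76). Cd34, a surface marker of progenitors, fell to 334, 280 and 297 on Day 1, against 555, 578 and 586 on Day 0. The fibroblast markers Thy1, Dpt, Lum, Fap and Tcf21 were below 10 on average on both days. The fibroblast list shares Col1a1, Col3a1 and Dcn with the matrix list and Vim with the myoblast list, and Des is in both the myoblast and smooth muscle lists. The sums are therefore not separate from each other or from the matrix result. The fibroblast sums move with the matrix genes, and their part in that result was not tested. Of 10 smooth muscle markers, 5 stayed under 100, with sums of 7542 to 7886 on Day 1 and 5204 to 5861 on Day 0. Of 13 adipocyte markers, 10 stayed under 100, and the other 3, Pparg, Lpl and Pnpla2, fell, with sums of 804 to 912 on Day 1 and 1312 to 1352 on Day 0. Of 13 markers of osteoblasts and chondrocytes, 12 stayed under 100, with sums of 334 to 384 on Day 1 and 259 to 292 on Day 0.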

How the data were processed

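Total RNA of C2C12 cells was measured on Affymetrix mouse arrays, 3 each for Day 1 and Day 0. The deposited values are intensities on a linear scale, which the authors made with GC-RMA, raised from log2 and scaled to a common trimmed mean, and the submitters' processing notes name GCRMA and MAS5. Their log2 was compared with limma 3.58.1 in R 4.3.3 (lmFit, eBayes) over the 12332 of 45101 probe sets whose mean reached 100 on either day, and p-values were adjusted by Benjamini-Hochberg over all of these. The number of arrays limits the precision, and an exact permutation test of 3 against 3 arrays could not pass. A gene was taken at its probe set of the highest absolute t. The platform annotation gave 1 gene for 34958 probe sets, several for 932, and did not list 9211. Of the former, 34754 were matched to RefSeq. The script was tested on simulated data.

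Named were the 12 largest rises and falls without overlap, in each list the 2 members of lowest adjusted p in each direction, a set of myogenic and growth genes, and the 12 largest swings at 6 hours among genes that did not pass. Members and lists were chosen with earlier results of these data known. Families, list members described as such, and the motifs TGATGNAA and GCGGAGGC were chosen after their values were seen. List counts are descriptions beside the share of all genes. Alternatives were all 24 arrays in 1 fit, a replicate block, values left linear, level filters of 200 and none, quantile normalization, a floor of 50, an intensity trend, a 2-fold threshold, each gene's brightest probe set, and leaving out each array.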

Additional observations from a re-analysis of the deposited data

How the results depend on the processing

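Under the alternatives run, the counts of 2112 probe sets and 1493 genes higher on Day 1 and of 3050 probe sets and 2296 genes lower stayed within 1.5 times, with these exceptions. Asking for a 2-fold difference as well left 241 probe sets and 185 genes higher and 141 probe sets and 99 genes lower. With all 24 arrays in 1 fit, 1885 probe sets and 1444 genes were lower. When each array was left out in turn, probe sets higher ranged from 1578 to 2194 and genes higher from 1148 to 1539, while probe sets lower ranged from 1845 (without Day 0 replicate 2) to 3016 and genes lower from 1463 (without Day 0 replicate 2) to 2250. Same-numbered arrays did not deviate together (r = -0.264, 0.026 and -0.306 for replicates 1 to 3). With 3 arrays a day, each set against the mean of its day, these values cannot show whether the numbers pair the arrays. The replicate block gave 1773 probe sets and 1288 genes higher and 2384 probe sets and 1834 genes lower. Of 192 named genes, 186 kept direction and call with the replicate block, 186 with quantile normalization, 173 with all 24 arrays, 192 with the floor of 50 and 105 with the 2-fold threshold. Of 82 list counts, 71 stayed within 1.5 times with the replicate block, 61 with all 24 arrays and 59 with no level filter.

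List counts of at least 4 that moved by over 1.5 times were these, with the 6-array count in parentheses. With all 24 arrays in 1 fit, 4 of DNA replication rose (against 12), 4 of DNA replication fell (against 8), 4 of TCA cycle and fatty acid oxidation fell (against 8), 8 of TGF-beta and BMP signalling rose (against 13), 2 of TGF-beta and BMP signalling fell (against 4), 2 of YAP, TEAD and SRF targets fell (against 4), 3 of chemokines and cytokines fell (against 6), 4 of endoplasmic reticulum chaperones rose (against 7), 2 of glycolysis fell (against 7), 4 of hypoxia-inducible genes fell (against 7), 1 of insulin-like growth factor system rose (against 4), 2 of interferon response rose (against 4), 6 of mitosis rose (against 34), 2 of oxidative phosphorylation fell (against 14), 5 of proteasome subunits fell (against 10) and 2 of sarcomere and contraction fell (against 5). With linear values, 7 of DNA replication rose (against 12), 5 of DNA replication fell (against 8), 8 of calcium handling rose (against 15), 0 of insulin-like growth factor system rose (against 4), 2 of interferon response rose (against 4) and 2 of sarcomere and contraction fell (against 5). With no level filter, 4 of DNA replication fell (against 8), 3 of TCA cycle and fatty acid oxidation rose (against 5), 2 of YAP, TEAD and SRF targets fell (against 4), 4 of the neuromuscular junction rose (against 7), 7 of calcium handling rose (against 15), 3 of fatty acid and triglyceride synthesis fell (against 5), 2 of insulin-like growth factor system rose (against 4), 3 of matrix proteases fell (against 5), 4 of oxidative phosphorylation fell (against 14), 3 of proteasome subunits fell (against 10) and 3 of sarcomere and contraction fell (against 5). With the replicate block, 4 of TCA cycle and fatty acid oxidation fell (against 8), 4 of endoplasmic reticulum chaperones rose (against 7), 4 of glycolysis fell (against 7), 3 of matrix proteases fell (against 5) and 9 of oxidative phosphorylation fell (against 14). With quantile normalization, 5 of DNA replication fell (against 8). With a level of 200, 2 of TGF-beta and BMP signalling fell (against 4), 4 of the neuromuscular junction rose (against 7), 3 of chemokines and cytokines rose (against 6), 3 of fatty acid and triglyceride synthesis fell (against 5), 2 of interferon response rose (against 4) and 3 of p53 target genes fell (against 5). With the brightest probe set, 7 of DNA replication rose (against 12), 2 of TCA cycle and fatty acid oxidation rose (against 5), 2 of TGF-beta and BMP signalling fell (against 4), 4 of endoplasmic reticulum chaperones rose (against 7), 3 of glycolysis fell (against 7), 3 of matrix proteases fell (against 5), 2 of proteasome subunits rose (against 4) and 2 of sarcomere and contraction fell (against 5).

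Some directions turned. The log2 fold change of Becn1 was -0.30 with linear values and with no level filter, and ranged from -0.36 to 0.50 when an array was left out. That of Sp1 was -0.13 with linear values and ranged from -0.50 to 0.28 when an array was left out. Bub3 was at 0.07 and Tpm3 at 0.13 with a level of 200 or each gene's brightest probe set, and Tpm3 at 0.13 also with linear values and with no level filter. With no level filter Ccn1 was at 1.12 and Dtna at 0.71. With the brightest probe set Igfbp5 was at 0.01, Psmc4 at -0.30 and Psmc6 at -0.19, the last also with linear values. These settings let another probe set stand for the gene. Probe sets of low level, such as those of the largest rises on Day 0, carry the least signal over background.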
